A study of Mus musculus with 2 samples.

Results

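Complement genes were examined in mouse fetal thymic stromal cells that had been grown either as a reaggregate or as a flat culture. The 9 genes were C1r, C1s, Serping1, C2, C4b, C3, Cfb, Cfd and Cfi, out of 19506 genes named on the array, and they were taken as every probe whose gene name or accession in the scanner files belonged to one of them. C1r and C1s are annotated today as C1ra and C1s1, since the mouse carries a second copy of each (C1rb and C1s2). The cells came from the fetal thymus of C57BL/6 mice at E14.5 or E15.5. All lobes had first been kept in organ culture with 1.35 mM deoxyguanosine, an agent used to deplete haematopoietic cells, for 8 days (E14.5) or 9 days (E15.5), and were then dispersed with trypsin. For the last 72 h the dispersed cells were kept either in reaggregation thymus organ culture (RTOC), as a drop on a membrane, or in 2D culture on a plastic dish. The stromal cells were not sorted, so each RNA is that of a mixture of cell types. RTOC RNA (Cy5) and 2D culture RNA (Cy3) of the same stage were hybridized together on 1 array, which gave 2 arrays in all.

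Complement is a cascade of blood-borne proteases that marks particles for uptake and for lysis. The classical pathway starts with C1, in which the proteases C1r and C1s sit on the recognition protein C1q; C1s cuts C4 and C2, and Serping1 encodes the C1 inhibitor, which blocks both proteases. C2 and factor B (Cfb) are related proteases that form the active subunit of the enzymes that cut C3, the protein on which all pathways meet. Factor D (Cfd) cuts factor B in the alternative pathway and is also known as adipsin, a product of adipocytes, while factor I (Cfi) destroys the active fragments of C3 and C4. Liver makes most of the circulating complement, and macrophages, fibroblasts and epithelial cells make many components locally.

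By the scanner software's own flag, the share of the 41174 probes well above background was 53.1% (E14.5) and 53.5% (E15.5) for 2D culture, and 56.3% and 60.9% for RTOC. All 10 markers of thymic epithelium on a list that includes Foxn1 and Psmb11 were well above background in all 4 channels. No array had its dyes swapped, so culture and dye cannot be told apart. Nor can stage be told apart from array or from the days under deoxyguanosine. In RNA of mixed cells, fewer cells of a type and less RNA per cell cannot be told apart.

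Among the 9 genes, expression of C1r and C1s, which start the classical pathway, differed most clearly between the cultures. Of the 9 genes, 6 could be tested and 3 of them, C1r, C1s and C3, were higher in RTOC. None was lower, and C2, Cfb and Serping1 did not pass the test. For comparison, 15.3% of all 23685 tested probes were higher in RTOC and 13.6% were lower. The test was limma on the log2 ratio of RTOC over 2D culture against 0, two-sided, with Benjamini-Hochberg adjustment over all tested probes and a threshold of 0.05. With 2 arrays it has 1 residual degree of freedom, and its p-values rest largely on the spread shared over all probes. The median log2 ratio of the 6 tested genes was 1.35, and that of all tested probes was -0.01. C4b, Cfd and Cfi were not tested, because on the E14.5 array neither of their channels was well above background. When probes were tested with no filter on dim ones, limma called none of the 9 genes, with 2 at an unadjusted p under 0.05, and C1r and C1s each had an adjusted p of 0.117.

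**Figure D1:**
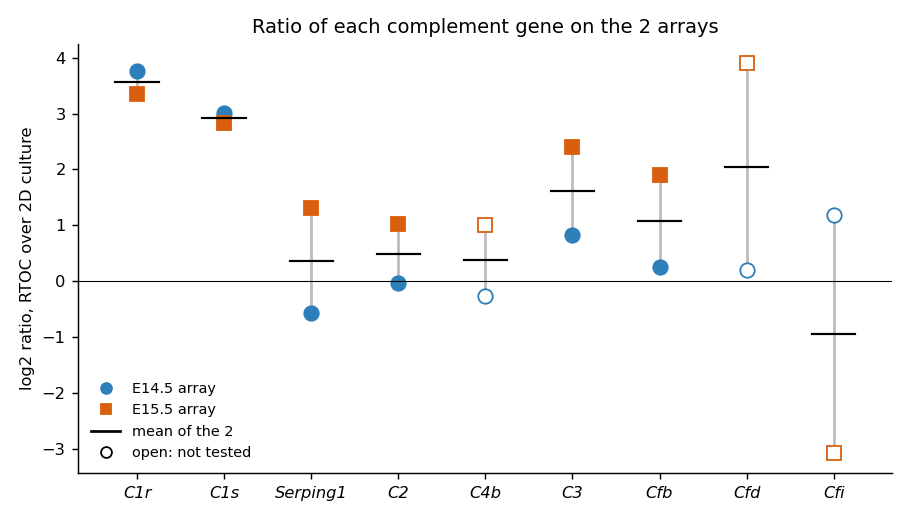
Log2 ratio of RTOC over 2D culture for each of the 9 genes on the E14.5 array (circles) and the E15.5 array (squares), with the mean of the 2 as a bar. The 2 arrays lie close together for C1r and C1s, whereas for the other 7 genes they lie at least 1 log2 unit apart, and open symbols mark genes that were not tested.

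C1r encodes the protease that activates itself and then C1s within the C1 complex. Its normalized intensity, given as log2 throughout, was 5.69 (2D culture) and 9.46 (RTOC) at E14.5. At E15.5 it was 6.95 (2D culture) and 10.30 (RTOC). Both RTOC values lay above both 2D values, and the 2D value on the E14.5 array was the one not well above background. The log2 ratio was 3.35 at E15.5, or 10.2-fold higher in RTOC, and 3.77 at E14.5, where the 2D value it was taken against was not measured. Their mean was 3.56 ± 0.29 (SD, n = 2; limma adjusted p = 0.0017). Where all 4 channels had to be well above background, C1r was not tested, and 2 of 4 tested genes, C1s and C3, passed. With normexp background correction and loess the mean C1r ratio was 1.54 and still passed (adjusted p = 0.016).

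C1s encodes the protease that cuts C4 and C2. The brighter of its 2 probes read 7.69 (2D culture) and 10.69 (RTOC) at E14.5. The same probe read 8.56 and 11.38 at E15.5. All 4 channels were well above background, and the cultures did not overlap. The ratios of 3.001 and 2.82 gave a mean of 2.91 ± 0.13 (SD, n = 2), or 7.53-fold higher in RTOC (limma adjusted p = 0.0022). The dimmer C1s probe gave ratios of 2.41 and 2.16, and it also passed the test (limma adjusted p = 0.0037). Its 2D channel at E14.5 was not well above background, so the ratio of 2.41 has no exact size. With normexp and loess the mean ratio of the brighter probe was 1.85 (adjusted p = 0.013).

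Since the mouse has second copies of C1r and C1s, what each probe can bind matters for these values. The dimmer C1s probe and the C1s2 probe of the array cover overlapping stretches of the 2 genes, and both are shown because over 42 bases they differ at only 6, printed in capitals:
C1s: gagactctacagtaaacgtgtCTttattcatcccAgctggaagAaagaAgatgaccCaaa
C1s2: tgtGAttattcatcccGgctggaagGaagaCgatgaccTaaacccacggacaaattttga
The longest run they share is 11 bases. The C1s2 probe read 3.83 and 3.94 in 2D culture and 5.51 and 5.72 in RTOC, and it was well above background only in RTOC on the E15.5 array. Its ratios were 1.68 and 1.78, and it was not tested. How far the C1s and C1s2 transcripts bind each other's probes was not tested. The brighter C1s probe shares no run longer than 6 bases with the C1s2 probe, and the C1r probe shares none longer than 5 with the C1rb probe. Probes were compared only with each other, so these runs do not say whether a probe binds the transcript of the other copy. Binding between C1r and C1rb was not tested either.

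The 60-base probes behind the 3 higher genes begin, in their first 30 bases and in the orientation of the array's design, as follows:
C1r: tctgaccaattgttgataagcactatgatt
C1s: cacaacgatggagagaagatgtgggagtat
C3: attcacagaatctatggtggtttatggttg
The C1rb probe, which the scanner files name C1r but describe as C1rb, read 5.11 and 5.94 in 2D culture and 5.88 and 6.27 in RTOC. It was well above background only in RTOC on the E15.5 array.

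The genes C1r and C1s lie next to each other on chromosome 6, in opposite orientations by the strands of their promoters. Among the 12 protein-coding genes nearest to them, 7 were tested and 1 passed, Ptpn6, a phosphatase of blood cells, with a mean ratio of 1.77. C1rl, a C1r-like protease gene on the other side of C1r, had ratios of 0.08 and 0.07 (limma adjusted p = 0.841). The median ratio of the 7 tested neighbours was 0.30.

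**Figure D2:**
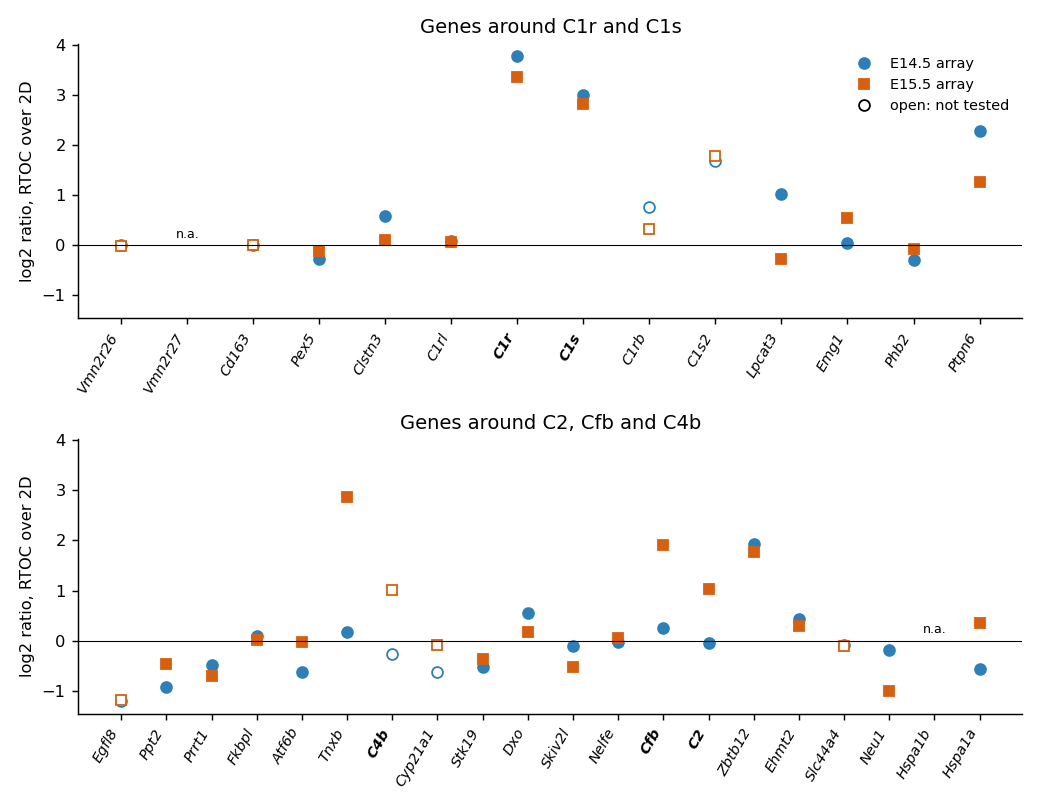
Log2 ratio of RTOC over 2D culture for protein-coding genes in their order along the chromosome around C1r and C1s (top) and around C2, Cfb and C4b (bottom), on the E14.5 array (circles) and the E15.5 array (squares). C1r and C1s stand at 3.77 to 2.82 beside C1rl at 0.08 and 0.07; open symbols were not tested, and n.a. marks a gene that the array does not name.

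The bases before the start sites of C1r, C1s and C3 are shown because these are the 3 genes that passed the test. RefSeq promoter sequence (GRCm38.p6) was at hand for 4 of the 9 genes, C1r, C1s, C3 and Cfd. Each run holds the 250 bases before the start site, read 5′ to 3′ on the gene's strand, and capitals mark matches to the motifs described next. The stretches are chr6:124512371-124512620 (plus strand) for C1r, chr6:124542360-124542609 (minus strand, the more upstream of 2 start sites) for C1s, and chr17:57228137-57228386 (minus strand) for C3.
C1r: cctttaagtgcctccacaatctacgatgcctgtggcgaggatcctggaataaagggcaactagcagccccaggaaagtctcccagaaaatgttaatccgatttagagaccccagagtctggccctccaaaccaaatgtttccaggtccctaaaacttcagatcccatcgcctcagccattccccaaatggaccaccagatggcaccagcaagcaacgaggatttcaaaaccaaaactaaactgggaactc
C1s: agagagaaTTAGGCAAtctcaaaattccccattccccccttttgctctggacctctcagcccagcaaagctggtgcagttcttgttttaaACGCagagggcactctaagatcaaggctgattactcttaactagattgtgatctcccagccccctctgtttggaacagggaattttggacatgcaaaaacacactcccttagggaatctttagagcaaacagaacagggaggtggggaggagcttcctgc
C3: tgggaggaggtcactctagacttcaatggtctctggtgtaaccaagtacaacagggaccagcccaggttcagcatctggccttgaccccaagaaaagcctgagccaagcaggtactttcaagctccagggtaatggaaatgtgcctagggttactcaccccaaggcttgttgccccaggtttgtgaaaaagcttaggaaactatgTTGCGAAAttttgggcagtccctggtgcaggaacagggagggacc
Both strands of the 300 bases from 250 before to 50 after each start were searched for letters that stand for known factors. They were TTCNNNGAA (STAT factors), GAAANNGAA (interferon-stimulated element), GGGANTTCC (NF-kB), TTGCNNAA (C/EBP), the common start-site element TATAAA, and, as the core of the motif bound by Foxn1 of the thymic epithelium, ACGC. TTGCNNAA matched in C1r, at position 17 after the start, in C1s, at -242 from the more upstream start with no match in the window of the other start, and in C3, at -45, and 10.8% of all 32851 mouse promoters hold it. TTCNNNGAA matched once, in C1r at position 33, and 8.30% of promoters hold it. ACGC matched in C1s at -160, against 55.3% of promoters, and TATAAA in C3 at position 15, against 13.6%. GAAANNGAA and GGGANTTCC, held by 8.56% and 1.68% of promoters, had no match in these windows, and the Cfd window held none of the 6 motifs. No matches overlapped each other, and a match here describes letters and not a bound site.

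Serping1, which encodes the inhibitor of C1r and C1s, did not follow them. At E14.5 its intensity was 9.73 in 2D culture against 9.15 in RTOC, and at E15.5 it was 7.81 against 9.11. RTOC was therefore lower on one array and higher on the other, and the 2 RTOC values were nearly equal while the 2D values differed by 1.92. The ratios were -0.58 and 1.30, with a mean of 0.36 ± 1.33 (SD, n = 2), and the test was not passed (limma adjusted p = 0.592).

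C2, the partner that C1s cuts to form the C3-cutting enzyme of the classical pathway, was bright in every channel. At E14.5 its brighter probe read 11.42 in 2D culture against 11.38 in RTOC, and at E15.5 it read 10.96 against 11.98. The cultures were level on one array and RTOC was higher on the other, with ratios of -0.04 and 1.03. The mean of 0.49 ± 0.75 (SD, n = 2) did not pass (limma adjusted p = 0.311). The dimmer C2 probe, with ratios of -0.45 and 0.63, also had opposite signs on the 2 arrays (limma adjusted p = 0.856).

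C4b, the other substrate of C1s, was close to background. At E14.5 its probe read 5.26 in 2D culture against 5.002 in RTOC, and at E15.5 it read 5.10 against 6.10, the only one of these well above background. The ratios of -0.26 and 1.001 are therefore differences between values at background in 3 of 4 channels. The probe of the neighbouring copy C4a was above background in no channel.

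**Figure D3:**
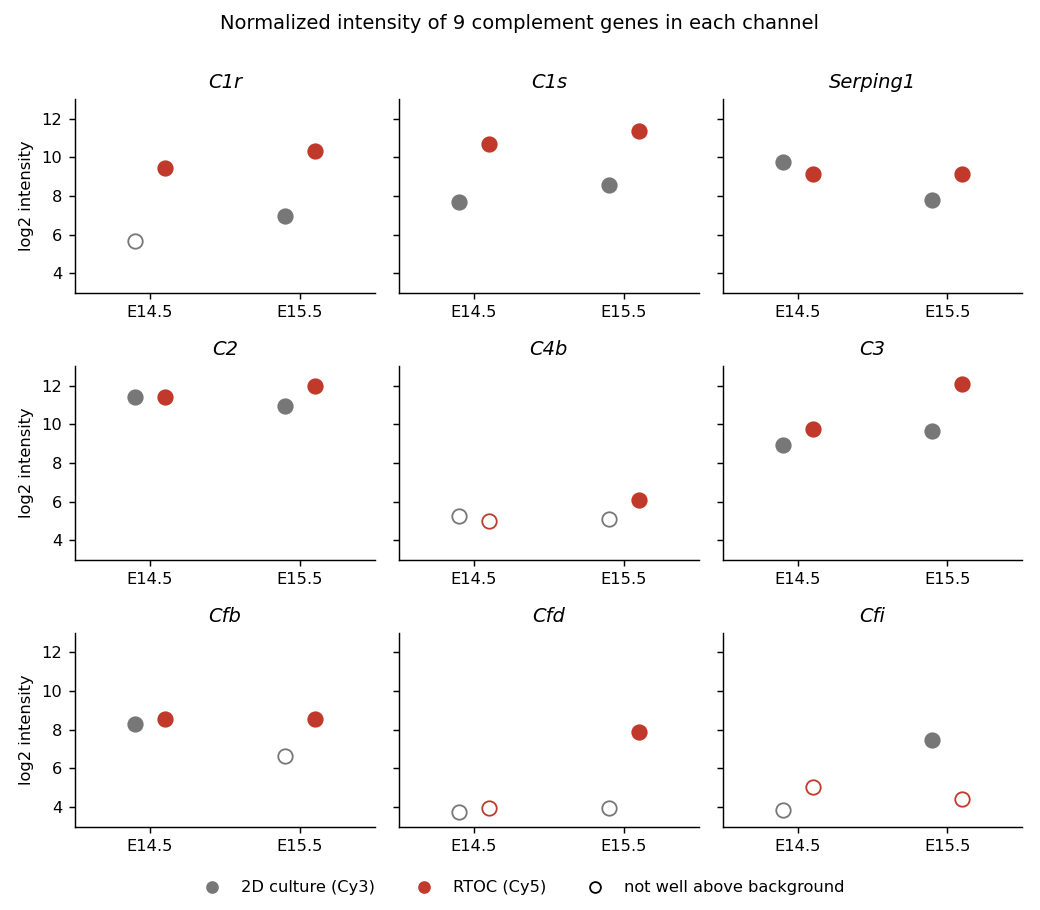
Normalized log2 intensity of the 9 genes in the 4 channels, 2D culture in grey and RTOC in red, with E14.5 on the left and E15.5 on the right of each panel. Open symbols mark channels not well above background. The panels of C1r, C1s, C3 and Cfb show both RTOC values above both 2D values, by little for C3 and for Cfb at E14.5. Those of Cfd and C4b show 1 filled symbol, in RTOC on the E15.5 array. Levels compare channels of a gene and not different genes.

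C3, the central component, was higher in RTOC on both arrays, but to a different extent. At E14.5 its intensity was 8.91 in 2D culture against 9.73 in RTOC, and at E15.5 it was 9.65 against 12.06. All 4 channels were well above background, and the lower RTOC value exceeded the higher 2D value by little. The ratios were 0.82 (1.77-fold) and 2.41 (5.31-fold), with a mean of 1.62 ± 1.12 (SD, n = 2), and the test was passed (limma adjusted p = 0.039). The probe was printed at 10 spots on each array, whose log2 ratios had an SD of 0.07 (E14.5) and 0.06 (E15.5), a spread of spots that leaves out the spread between samples. The call was lost with normexp and loess (mean ratio 1.22, adjusted p = 0.101) and with the 4 channels treated as unpaired (adjusted p = 0.200). A second C3 probe was not well above background in any channel.

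Factor B, which replaces C2 in the alternative pathway, was not called. At E14.5 Cfb read 8.30 in 2D culture against 8.54 in RTOC, and at E15.5 it read 6.65 against 8.55. The 2 RTOC values differed by 0.01, and the 2D value of the E15.5 array, the lowest, was not well above background. The ratios of 0.25 and 1.90 gave a mean of 1.07 ± 1.17 (SD, n = 2; limma adjusted p = 0.117). With normexp and loess the mean Cfb ratio was 0.32.

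C2, Cfb and C4b lie within 1 stretch of chromosome 17 in the major histocompatibility complex, with Cfb and C2 side by side. Of the 17 protein-coding genes nearest to them that are not complement genes, 13 were tested and 1 passed, Zbtb12, a zinc finger gene next to C2, with ratios of 1.93 and 1.78 (limma adjusted p = 0.0062). The median ratio of the 13 was -0.10. The plot of ratios in gene order shows C2, Cfb and C4b higher on the E15.5 array than on the E14.5 array. Tnxb, the neighbour of C4b, was also higher there, at 0.17 and 2.87, and did not pass. Some other neighbours were lower on the E15.5 array, and the median ratio of the 13 was -0.11 (E14.5) and 0.02 (E15.5).

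Factor D was measurable in 1 channel. At E14.5 Cfd read 3.77 in 2D culture against 3.97 in RTOC, and at E15.5 it read 3.98 against 7.88, and only the last was well above background. The ratios were 0.20 and 3.90, the second against a 2D channel that was not measured, on 1 array with no replicate and therefore no test. No limit over both arrays is given for Cfd, because neither channel was measured at E14.5. With normexp and loess, whose offset of 50 raises dim signals, the Cfd ratios were -0.06 and 0.53.

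Adipocyte markers were compared with Cfd because it is a known product of these cells. Of the 8 markers, 3 were tested and all 3 were higher in RTOC: Fabp4, a fatty acid carrier, by 4.35, Lpl, a lipase, by 4.02 and Pparg, the regulator of adipocyte formation, by 1.74. The untested Adipoq, which encodes adiponectin, had ratios of 0.89 and 4.34, and its RTOC intensity was 4.65 at E14.5 and 10.72 at E15.5. Adipoq was well above background in both channels at E15.5 and in neither at E14.5. Plin1, a protein of lipid droplets, was well above background in 1 channel, RTOC at E15.5, so its ratios have no exact size. Lep and Retn, which encode adipocyte hormones, were well above background in no channel. The summed intensity of the 8 markers was 6959 and 3018 in 2D culture and 58843 and 86587 in RTOC. Fabp4 and Lpl were the brightest of the 8 in all 4 channels and make up most of the RTOC sums. In RTOC at E14.5 they read 14.59 and 14.98, against 10.74 for Pparg. On that array Adipoq, Plin1, Cidec, Lep and Retn were well above background in neither culture. The part of adipocyte markers in the Cfd value was not tested.

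**Figure D4:**
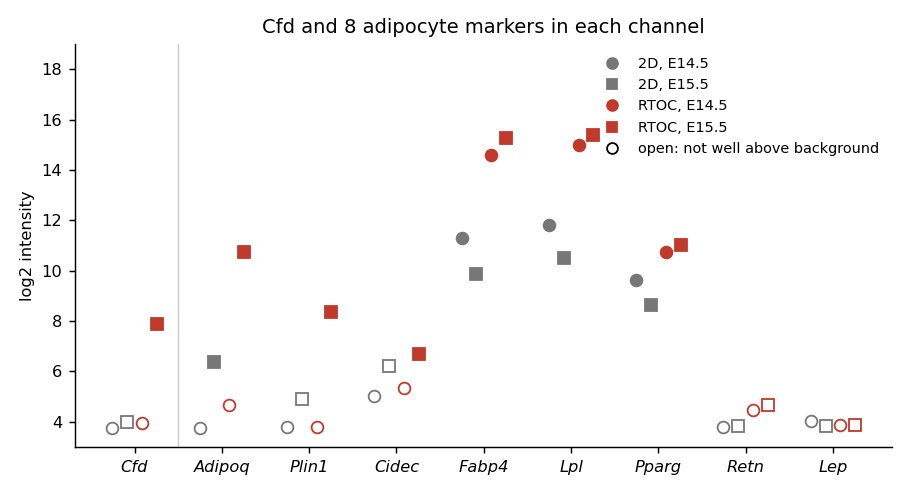
Normalized log2 intensity of Cfd and of 8 adipocyte markers in 2D culture (grey) and RTOC (red) on the E14.5 array (circles) and the E15.5 array (squares), with open symbols for channels not well above background. Cfd, Adipoq, Plin1 and Cidec in RTOC are filled on the E15.5 array and open on the E14.5 array, whereas Fabp4, Lpl and Pparg are filled in all 4 channels.

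Factor I showed the opposite arrangement. At E14.5 Cfi read 3.84 in 2D culture against 5.03 in RTOC, neither well above background, and at E15.5 it read 7.50 against 4.41, where the 2D value was the one measured. The ratios were 1.19 and -3.08. The RTOC channel was not measured on either array, and with normexp and loess the mean Cfi ratio was -0.18.

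Between the 2 arrays, the ratio was larger at E15.5 by at least 1 log2 unit for 6 of the 9 genes, C2, C3, C4b, Cfb, Cfd and Serping1, and smaller for C1r, C1s and Cfi. With normexp and loess, 1 of the 9 was larger by that much, and 8 were larger at all against 6 in the main values. For C4b, Cfb, Cfd, C1r and Cfi these sizes involve channels not well above background and are not exact. For the genes measured in all 4 channels, the channels that differed between the arrays were not the same. From E14.5 to E15.5, C3 differed by 0.75 in 2D culture and by 2.33 in RTOC. Serping1 differed by -1.92 in 2D culture and by -0.04 in RTOC, and C2 by -0.46 and 0.60. C1s was higher at E15.5 in both, by 0.87 in 2D culture and 0.69 in RTOC. With 1 array a stage, none of these differences between stages was tested. The share of all tested probes whose ratio was larger at E15.5 by at least 1 log2 unit was not counted. The count of 6 of 9 therefore has no share to be read against. The median ratio of all tested probes was -0.018 (E14.5) and -0.0012 (E15.5).

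The rest of the complement system was mixed. Of 44 other complement genes on the array, 24 were tested, 7 were higher in RTOC, 1 was lower and 16 did not pass, with a median ratio of 0.61. Where all 4 channels had to be well above background, 20 could be tested and 5 were higher. Over all genes with 1 probe each, 16128 were tested, 2686 were higher in RTOC and 1952 were lower, with a median ratio of 0.05. These counts are the comparison for the other complement genes, the neighbours and the lists of markers and induced genes. Vtn, which encodes vitronectin, an inhibitor of the terminal complex, and C8g, a subunit of the terminal component C8, entered the test through their RTOC channels alone. Both were too dim in 2D culture to be measured, so their difference is given as at least 1.80-fold for Vtn and at least 1.29-fold for C8g. The fit's adjusted p-values from limma, 0.0016 and 0.014, were taken on ratios against those unmeasured values, and both genes are among the 7.

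Other genes of recognition and initiation, which include C1q, collectins, ficolins, further proteases and properdin, were tested in 8 of 13 cases, with 3 higher and 1 lower. Colec11, a collectin that starts the lectin pathway, rose by a mean ratio of 2.59 ± 0.79 (SD, n = 2; limma adjusted p = 0.0058). Of the chains of C1q, the protein that carries C1r and C1s, C1qc was higher by 1.28 and C1qb by 1.002, each on both arrays, whereas C1qa had a mean ratio of 0.39 (limma adjusted p = 0.283). Masp1, the lectin pathway counterpart of C1r and C1s, was lower, with intensities of 9.52 and 10.53 in 2D culture and 7.35 and 7.67 in RTOC. Its ratios of -2.17 and -2.86 gave a mean of -2.51 ± 0.49 (SD, n = 2; limma adjusted p = 0.0039), the opposite direction to C1r and C1s. The other 3 Masp1 probes were above background in no channel. They include the probes named by a RefSeq transcript of Masp1, whereas the bright probe was named by its symbol. Which Masp1 transcript the bright probe reads was not tested.

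Among regulators that sit on the cell membrane, 5 were tested and none passed. Cd93, a receptor of endothelial and myeloid cells once described as a C1q receptor, was the 1 receptor of 6 tested that passed, with a mean ratio of 2.00. Its dimmer probe was not measured in 2D culture and did not pass (limma adjusted p = 0.094). Of 6 endothelial markers, 5 were tested and 4 were called higher in RTOC, but Cdh5, Pecam1 and Tie1 among them were not measured in 2D culture and are bounded at 5.02-fold, 1.42-fold and 1.12-fold or more. The summed intensity of the 6 was 1543 and 635 in 2D culture and 6421 and 9970.0 in RTOC. The part of endothelial markers in the Cd93 ratio was not tested.

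**Figure D5:**
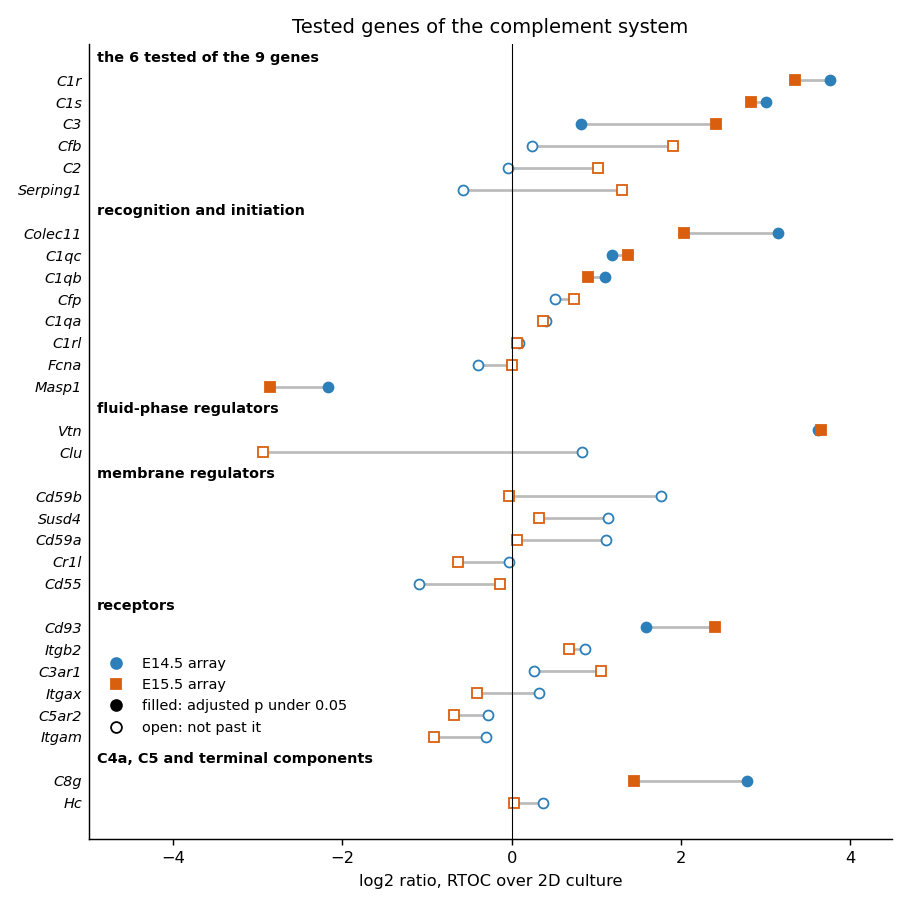
Log2 ratio of RTOC over 2D culture for the 6 tested of the 9 genes and for tested other complement genes by role (1 is not shown), on the E14.5 array (circles) and the E15.5 array (squares). Filled symbols passed the test; they lie to the right of 0 for C1r, C1s, C3 and 6 other genes and to the left for Masp1. Vtn and C8g were not measurable in 2D culture, so their points have no exact size.

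Macrophages make C1q, C3 and factor B, and their markers were set beside these genes. Of 10 markers, all well above background in all 4 channels, 7 were higher in RTOC, among them Adgre1 (mean ratio 3.01) and Ptprc (1.88), and 3 did not pass. Their summed intensity was 77815 and 63562 in 2D culture and 201528 and 240704 in RTOC. The part of macrophage markers in the ratios of C3, C1qb and C1qc was not tested. Of 10 epithelial markers 6 were higher, namely Ccl25, Prss16, Ly75, Psmb11, Dll4 and Foxn1. Cdh1 was lower, with a mean ratio of -1.28, and Epcam (-0.71), Krt8 (0.32) and Krt18 (0.70) did not pass. The epithelial list was therefore not higher as a whole. Its median was 3.03, and its sums were 283776 and 629605 in 2D culture and 968400.5 and 892587 in RTOC. Of 10 fibroblast markers 4 were higher and 5 lower, with a median of -0.32 and sums of 469998 and 397749 in 2D culture and 286186 and 307934 in RTOC. Their part in the ratios of C1r, C1s and C3 was not tested. Genes induced by interferon, which is known to raise C2, Cfb, C3 and Serping1, were 7 higher and 2 lower of 16 tested, with a median ratio of 0.91. The highest were H2-Aa and Psmb9, at 4.32 and 3.92, and the lowest were Irf7 and Isg15, at -1.07 and -1.04. Of acute phase genes and genes of the interleukin 6 response, 12 were tested, and their median ratio was -0.04. Of these, 2 were higher, 1 was lower and 9 did not pass. Hp was higher, with a mean ratio of 1.48 and 1 of its 2D channels not well above background. Saa3, too dim in both 2D channels to be measured, rose at least 1.37-fold, and Il6, too dim in both RTOC channels, fell at least 11.9-fold.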

How the data were processed

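Two-colour arrays of 2 samples were analysed. The authors ran Feature Extraction (9.1.3.1 per the file headers, 11.5.1.1 in the submitters' processing notes) and deposited, for each of 43379 spots, background and mean signals and a dye-normalized processed signal as an intensity. The deposited series table holds the log10 ratio of Cy5 over Cy3 of the same processed signals, within 5e-10 at every spot, and so is not quantile normalized. It was used for this check only. Its medians were -0.0188 (E14.5) and -0.0700 (E15.5). The methods name quantile normalization among all arrays. Labels and methods differ on the RNA kit, and file headers and methods differ on the scanner. The genome build behind the probes is not given in the sources used here.

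Processed signals without control spots and outlier spots (5 and 1) were quantile normalized over the 4 channels, and log2 ratios were averaged over the spots of a probe. Of 41174 probes, 22951 were named by accession, 6659 by symbol and 3108 by older symbol in a RefSeq table (GRCm38.p6), 1 by its description, and 8455 kept the file's name. Probes with at least 1 channel well above background on each array were tested with limma 3.58.1 in R 4.3.3, and the steps were tested on simulated data. A gene is given by its brightest probe, others beside it. A limit ("at least N-fold"), taken per channel after normexp, loess and Aquantile, compares the brighter culture's mean with, per array, the higher of the dimmest measurable signal and the dim probe's own. All 9 genes are named. Other complement genes are named if called and among the 8 largest, with C1q chains and C4a in any case (1 gene of the list is not reported here), and from interferon and acute phase lists at most the 2 highest and 2 lowest called. Neighbours are the 6 protein-coding genes on each side, and Ptpn6, Zbtb12, Tnxb and C1rl were picked for mention after their values were seen. The members and lists were chosen with earlier results of these data known. The 2 arrays are independent experiments per the labels, each pairing the cultures by stage. Precision is limited by 2 arrays. Alternatives were normexp (offset 50) with loess, Aquantile or median centring, no quantile step, median centring, other filters, outlier spots kept, another variance model, unpaired channels, the methods' t-test, each array left out and the median over probes.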

Additional observations from a re-analysis of the deposited data

Results flagged for a closer look

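Genes whose log2 ratio of RTOC over 2D culture had opposite signs on the arrays of both stages were singled out, and none of these differences was tested, since each stage has 1 array. In the order E14.5, E15.5, C2 had -0.037 and 1.03. Serping1 had -0.58 and 1.30. Of the other tested complement genes, Clu, which encodes clusterin, had 0.84 and -2.94, and Cd59b, a membrane regulator, had 1.76 and -0.030. The 2D channel of Cd59b at E14.5 was not well above background, so its 1.76 has no exact size. Fcna, a ficolin, had -0.39 and 0.0077, and Itgax, a chain of a complement receptor, had 0.32 and -0.41. Such opposite signs were found for 20.0% of the 23685 tested probes.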

How the results depend on the processing

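The count of changed probes, 6855 in the main values, was 3738 with normexp and loess and the same with Aquantile added, 4049 with no replicate block (the 4 channels as unpaired samples), 3541 by the methods' t-test unadjusted and 4 after Benjamini-Hochberg. Without the filter on dim probes limma called 0 probes, 0 of the 9 complement genes and 0 of 44 others, with 10660, 2 and 12 at an unadjusted p under 0.05. By the methods' t-test 2 of the 9 genes and 3 of the others passed unadjusted, and 0 and 0 after Benjamini-Hochberg. With no replicate block, 2 of the 9 genes and 6 of the others passed. Over the distinct alternatives with an adjusted test, C1r passed in 8 of 10, C1s in 9 of 11 and C3 in 7 of 11, with adjusted p from 0.00053 to 0.330, 0.00062 to 0.328 and 0.024 to 0.471. C2, Cfb and Serping1 passed in none. The ratios of C1r, C1s and C3 kept their sign under every alternative run. The mean C4b ratio, 0.37, was -0.08 with normexp and median centring. Leaving out an array leaves 1 ratio and no test, so counts could not be formed. The lone ratios are those given per array. The cause of the lost calls was not tested. Signal over background limits C4b, Cfd and Cfi.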
